A study of Mus musculus with 8 samples.

Results

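The 10 genes described here encode the machinery by which a cell displays peptides on major histocompatibility complex (MHC) class II molecules. They were chosen by name, as the rows of the deposited expression table that carry the symbols H2-Aa, H2-Ab1, H2-Eb1, H2-DMa, H2-DMb1, H2-DMb2, H2-Oa, H2-Ob, Ciita and Cd74. They make up 10 of 23735 loci in the table, each symbol has 1 locus, and all 10 passed the filter on low values, 1 RPKM in at least 2 libraries. RNA was sequenced from peritoneal macrophages of 8-week-old C57BL/6J mice in 4 groups of 2 libraries, marked A and B. The groups were macrophage MED1 knockout (MED1-/-, here KO) with lipopolysaccharide (LPS) at 50 ng/mL for 6 h, MED1 fl/fl floxed controls (here WT) with the same LPS, KO without LPS, and WT without LPS. WT cells thus carry the floxed allele too, and the sources used here do not give the Cre driver. MED1 belongs to Mediator, the complex that connects DNA-bound activators with the transcription machinery, while LPS comes from bacterial cell walls and is sensed through a Toll-like receptor.

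A class II molecule pairs an alpha and a beta chain that together hold a peptide from proteins the cell has taken up. Cd74, the invariant chain, fills the groove of new class II molecules and steers them to endosomes, where proteases trim it to a short remnant. H2-DM exchanges the remnant for peptides, and H2-O restrains H2-DM, mainly in B cells and some dendritic cells. Ciita is the coactivator that switches the family on, through the RFX, CREB and NF-Y factors bound to the X and Y boxes of class II promoters. B cells and dendritic cells express the family constitutively, whereas in macrophages interferon gamma is the classical inducer.

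On mm9, 8 of the 10 genes lie within chromosome 17, bases 34229285 to 34453144, in the class II region of the mouse MHC. Ciita lies on chromosome 16 (10480237 to 10527657, plus strand). H2-Aa (34406276 to 34424772, minus strand) and H2-Ab1 (34400154 to 34406363, plus strand) overlap by 88 bases on opposite strands. The sources used here do not say whether the libraries were stranded, so reads in the overlap cannot be told apart. H2-DMb1 and H2-DMb2 are near-identical neighbours, with 95.9% identity over 786 coding bases and a longest shared run of 221 bases, so their separate values are uncertain.

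The bases before the start of transcription are shown because Ciita's partners bind boxes in class II promoters. RefSeq promoters (GRCm38.p6) matched 7 of the 10 genes by symbol, and the 6 with the Y box letters between 150 and 31 bases before the start are shown over that stretch. Capitals mark the Y box letters ATTGG, the X2 letters TGATG or TGACG and the X1 letters, GNAAC followed after 3 bases by TG, each searched on both strands and overlapping in places.
H2-Aa (chr17:34287854-34287973, minus strand): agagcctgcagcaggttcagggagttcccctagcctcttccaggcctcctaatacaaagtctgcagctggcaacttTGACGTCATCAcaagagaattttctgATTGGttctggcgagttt
H2-Eb1 (chr17:34305717-34305836, plus strand): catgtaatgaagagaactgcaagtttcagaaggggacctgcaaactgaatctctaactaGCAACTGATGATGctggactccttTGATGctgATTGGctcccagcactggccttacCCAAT
H2-DMb1 (chr17:34153041-34153160, plus strand): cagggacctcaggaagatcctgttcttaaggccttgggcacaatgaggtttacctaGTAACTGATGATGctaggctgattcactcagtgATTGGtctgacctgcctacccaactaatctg
H2-DMb2 (chr17:34145099-34145218, plus strand): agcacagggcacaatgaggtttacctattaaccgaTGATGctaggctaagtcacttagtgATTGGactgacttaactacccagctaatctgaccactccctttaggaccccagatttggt
H2-Ob (chr17:34238755-34238874, plus strand): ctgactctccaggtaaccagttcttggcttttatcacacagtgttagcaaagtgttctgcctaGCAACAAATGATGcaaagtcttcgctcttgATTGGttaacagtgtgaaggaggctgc
H2-Oa (chr17:34092229-34092348, plus strand): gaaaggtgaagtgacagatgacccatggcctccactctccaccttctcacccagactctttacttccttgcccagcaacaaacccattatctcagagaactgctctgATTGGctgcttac

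The Y box letters stood 43 bases before the start in H2-Oa, 48 in H2-Aa, 57 in H2-Ob, 59 in H2-Eb1, 61 in H2-DMb1 and 90 in H2-DMb2. Short letters of this kind are common. Over the 250 bases before the start, ATTGG occurred in 33.8% of 32851 mouse promoters, TGATG in 34.5%, TGACG in 17.8% and the X1 letters in 9.73%. The X1 letters followed by the Y box letters with 10 to 30 bases between occurred in 0.225% of them, and in H2-Eb1, H2-DMb1 and H2-Ob, with gaps of 22, 23 and 20 bases. This pairing of letters was searched after the member promoters had been read. The neighbours H2-DMb1 and H2-DMb2 had 83.3% identity over 209 aligned bases before the start.

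Expression was deposited as RPKM, a read count scaled to transcript length and to the mapped reads of the library, so levels can be compared between genes. Averaged over the 8 libraries, Cd74 was the most abundant member at 1103 RPKM, followed by the classical chains H2-Aa (340.4 RPKM), H2-Ab1 (203.8 RPKM) and H2-Eb1 (146.2 RPKM). The chaperones came next, with H2-DMb2 at 29.4 RPKM, H2-Ob at 29.1 RPKM, H2-DMa at 22.8 RPKM and H2-DMb1 at 16.8 RPKM, and H2-Oa (10.6 RPKM) and Ciita (9.14 RPKM) were lowest. Cd74 exceeded H2-Aa in each library, by 2.65 to 3.96 times. H2-Aa exceeded H2-Ab1 in all but WT library B with LPS. From H2-DMb2 down to Ciita the order of neighbours differed between libraries, so these cannot be ranked beyond their spread. H2-Eb2, a further beta chain gene of the region, stood at 1.47 to 10.1 RPKM, and the H2-Ea pseudogene of this strain was listed at 0 in all 8 libraries.

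The depth, estimated from low values, was 7.0 to 14.4 M mapped reads, and 1 read per kilobase amounted to 0.0696 to 0.143 RPKM. The least covered member, H2-Oa, rested on an estimated 43 to 257 reads and Cd74 on 7686 to 20633. Med1, the targeted gene, stood at 24.4 and 20.3 RPKM in KO libraries with LPS, 24.7 and 21.6 RPKM in WT libraries with LPS, 17.6 and 23.4 RPKM in untreated KO libraries, and 21.7 and 24.8 RPKM in untreated WT libraries. It thus did not mark the KO label (log2 difference -0.12, SE 0.15, limma adjusted p = 0.999). RPKM was taken over the full gene and the deleted exons are unstated in the sources used here, so KO below means libraries labelled KO. Emr1 and Csf1r, which encode the macrophage proteins F4/80 and the CSF-1 receptor, were present in every library, at 277 to 709 RPKM and 249 to 948 RPKM. The labels do not say whether A and B came from separate animals, so every p measures the spread between these libraries. In bulk RNA, fewer cells of a type and less RNA per cell cannot be told apart.

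One library stood apart for the whole family. Untreated KO library B held the highest value of 9 of the 10 members, the exception being H2-Ab1, against 35.2% of all tested loci. The summed level of the 10 members was 2163 and 2375 RPKM in KO libraries A and B with LPS, against 1982 and 1360 RPKM in WT with LPS. It was 1259 and 3430 RPKM in untreated KO libraries A and B, against 1358 and 1361 RPKM in untreated WT. The untreated WT pair was nearly equal, whereas the untreated KO pair spanned the whole range of the 8 libraries.

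**Figure D1:**
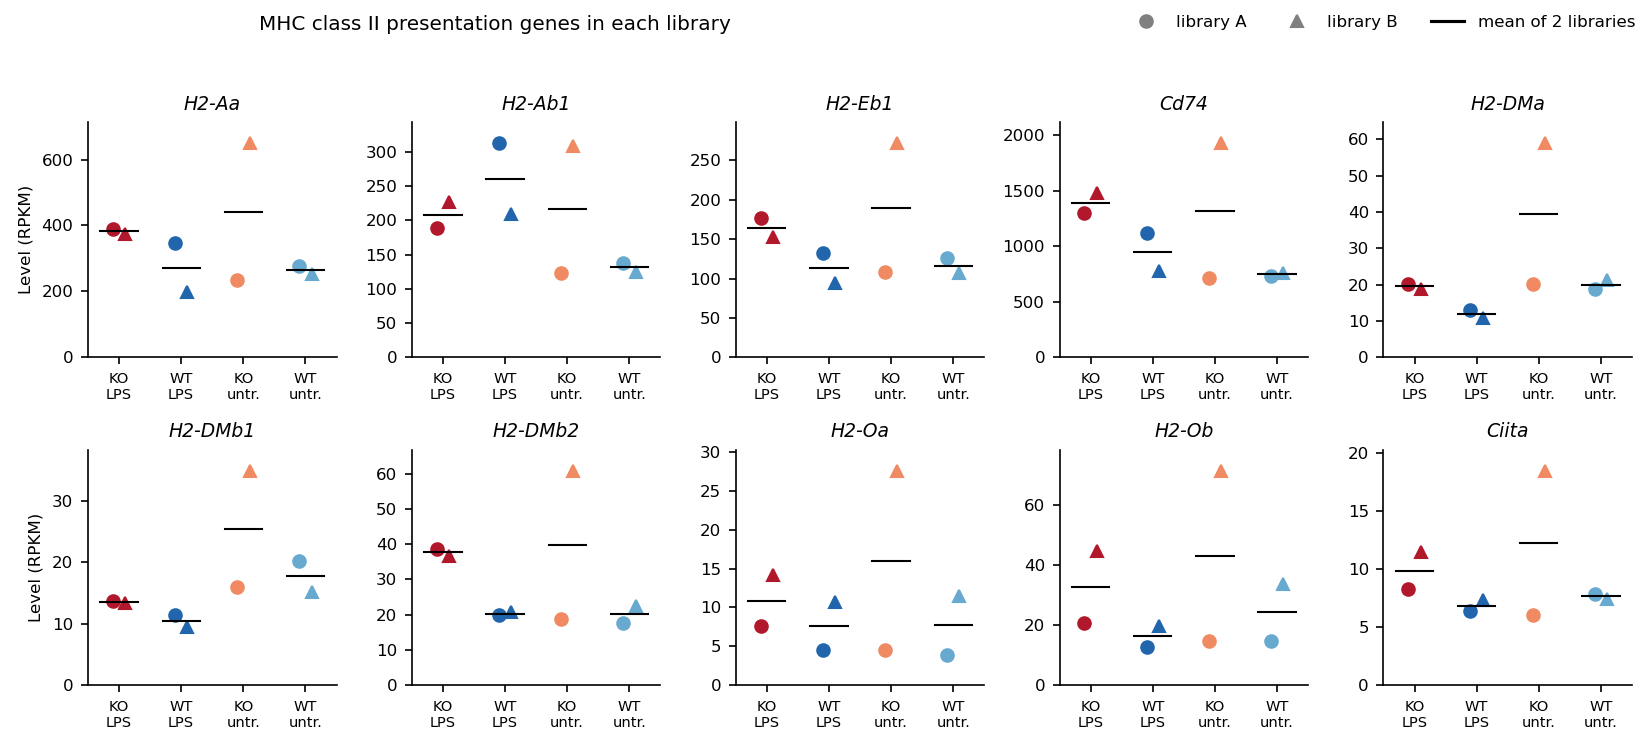
Level in RPKM (linear axis from 0) of the 10 genes in each library, by group; circles are library A, triangles library B and the line the mean of 2. In 9 of 10 panels the highest point is untreated KO library B, and H2-Oa and H2-Ob have the triangle above the circle in each group.

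H2-Aa encodes the alpha chain of I-A, the class II molecule that this strain displays. Its levels were 391 and 374 RPKM in KO with LPS, 346 and 197 RPKM in WT with LPS, 235 and 649 RPKM in untreated KO, and 277 and 254 RPKM in untreated WT (libraries A and B). H2-Eb1, which encodes the beta chain of I-E, stood at 177 and 152 RPKM in KO with LPS, 132 and 94.4 RPKM in WT with LPS, 108 and 272 RPKM in untreated KO, and 125 and 107 RPKM in untreated WT. In both genes the LPS and untreated libraries overlapped within each genotype, and with LPS the KO libraries lay above the WT libraries. The pair moved together: H2-Eb1 stayed between 0.383 and 0.479 times H2-Aa in the 8 libraries, a 1.25-fold range. Changes were estimated with limma on log2(RPKM + 1) over all loci and called at an adjusted p under 0.05. With LPS, H2-Aa had a log2 change of -0.03 in KO (SE 0.48, 95% interval -1.14 to 1.08) and -0.02 in WT (SE 0.48, -1.14 to 1.09). H2-Eb1 had -0.06 in KO (SE 0.41) and -0.05 in WT (SE 0.41). The direction of these near-zero changes depends on scaling, since median-ratio scaling gave 0.28 in KO and 0.27 in WT for H2-Aa, and 0.25 and 0.24 for H2-Eb1. The intervals allow a change of about 1 log2 unit either way.

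H2-Ab1, the I-A beta chain, did not keep the pace of H2-Aa. It stood at 189 and 226 RPKM in KO with LPS, 312 and 209 RPKM in WT with LPS, 123 and 309 RPKM in untreated KO, and 138 and 124 RPKM in untreated WT. Both WT libraries with LPS were above both untreated WT libraries, and H2-Ab1 was the 1 member whose highest value was WT with LPS, in library A. Its log2 change with LPS was 0.08 in KO (SE 0.42, 95% interval -0.91 to 1.07, limma adjusted p = 0.912) and 0.96 in WT (SE 0.42, -0.03 to 1.95, adjusted p = 0.181). The difference between these responses, KO minus WT, was -0.88 (SE 0.60, 95% interval -2.28 to 0.52, adjusted p = 1). Set against H2-Aa of the same library, H2-Ab1 was 0.484 and 0.604 times as high in KO with LPS and 0.903 and 1.06 times in WT with LPS. The ratio was 0.526 and 0.476 in untreated KO and 0.499 and 0.488 in untreated WT, so the WT libraries with LPS stood above the other 6. The ratios were formed after the values were seen and were not tested, and the part of the shared 88 bases in them was not tested. Averaged over genotypes, the LPS change of H2-Ab1 was 0.52 (adjusted p = 0.213), and it passed only without untreated KO library B (0.85, adjusted p = 0.0313).

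Cd74, on mm9 chromosome 18 (60963502 to 60972300, plus strand), stood at 1298 and 1483 RPKM in KO with LPS, 1123 and 781 RPKM in WT with LPS, 712 and 1929 RPKM in untreated KO, and 733 and 764 RPKM in untreated WT. Both WT libraries with LPS were above both untreated WT libraries, by little in library B, and the KO libraries of the 2 treatments overlapped. The log2 change with LPS was 0.24 in KO (SE 0.46, limma adjusted p = 0.741) and 0.32 in WT (SE 0.46, adjusted p = 0.667). The ratio of Cd74 to H2-Aa was 3.32 and 3.96 in KO with LPS and 3.25 and 3.96 in WT with LPS. It was 3.03 and 2.97 in untreated KO and 2.65 and 3.01 in untreated WT, so the 4 LPS libraries lay above the 4 untreated ones. The margin was narrow (3.25 against 3.03), and the separation was not tested.

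The peptide exchanger H2-DM gave the lowest LPS changes of the family in 2 of its 3 genes. H2-DMa, its alpha chain, stood at 20.3 and 18.8 RPKM in KO with LPS, 13.1 and 10.7 RPKM in WT with LPS, 20.1 and 58.9 RPKM in untreated KO, and 18.8 and 21.2 RPKM in untreated WT. H2-DMb1, a beta chain, stood at 13.8 and 13.4 RPKM in KO with LPS, 11.4 and 9.48 RPKM in WT with LPS, 15.9 and 34.9 RPKM in untreated KO, and 20.2 and 15.3 RPKM in untreated WT. In WT both genes were lower in both LPS libraries than in both untreated ones, and in KO this held for H2-DMb1, while H2-DMa library A was as high with LPS as without. The log2 changes of H2-DMa were -0.79 in KO (SE 0.44) and -0.71 in WT (SE 0.44), and averaged over genotypes -0.75 (SE 0.31, 95% interval -1.47 to -0.03, limma adjusted p = 0.102). Those of H2-DMb1 were -0.75 in KO and -0.70 in WT (SE 0.35 each), and averaged -0.73 (SE 0.25, -1.31 to -0.15, adjusted p = 0.0605). Neither passed. Without untreated KO library A, which leaves that group its high library, both passed in the averaged comparison, H2-DMa at -1.13 (adjusted p = 0.00813) and H2-DMb1 at -1.0 (adjusted p = 0.0137), and H2-DMa also in KO at -1.55 (adjusted p = 0.0309).

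H2-DMb2, the other beta chain, did not share this pattern. It stood at 38.6 and 36.6 RPKM in KO with LPS, 19.8 and 20.7 RPKM in WT with LPS, 18.8 and 60.7 RPKM in untreated KO, and 17.6 and 22.4 RPKM in untreated WT. Its log2 change with LPS was 0.14 in KO and 0.02 in WT (SE 0.47 each). With H2-DMb1 and H2-DMb2 summed, as their shared sequence warrants, the change was -0.17 in KO and -0.29 in WT, so the direction for H2-DMb2 does not hold for the pair. H2-DMb2 was 2.80 and 2.72 times H2-DMb1 in KO with LPS and 1.73 and 2.19 times in WT with LPS. The ratio was 1.18 and 1.74 in untreated KO and 0.873 and 1.47 in untreated WT, so within each genotype both LPS libraries lay above both untreated ones. That separation was not tested. How reads of the shared sequence were divided between the 2 genes is unstated in the sources used here, and its part in the ratio was not tested.

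**Figure D2:**
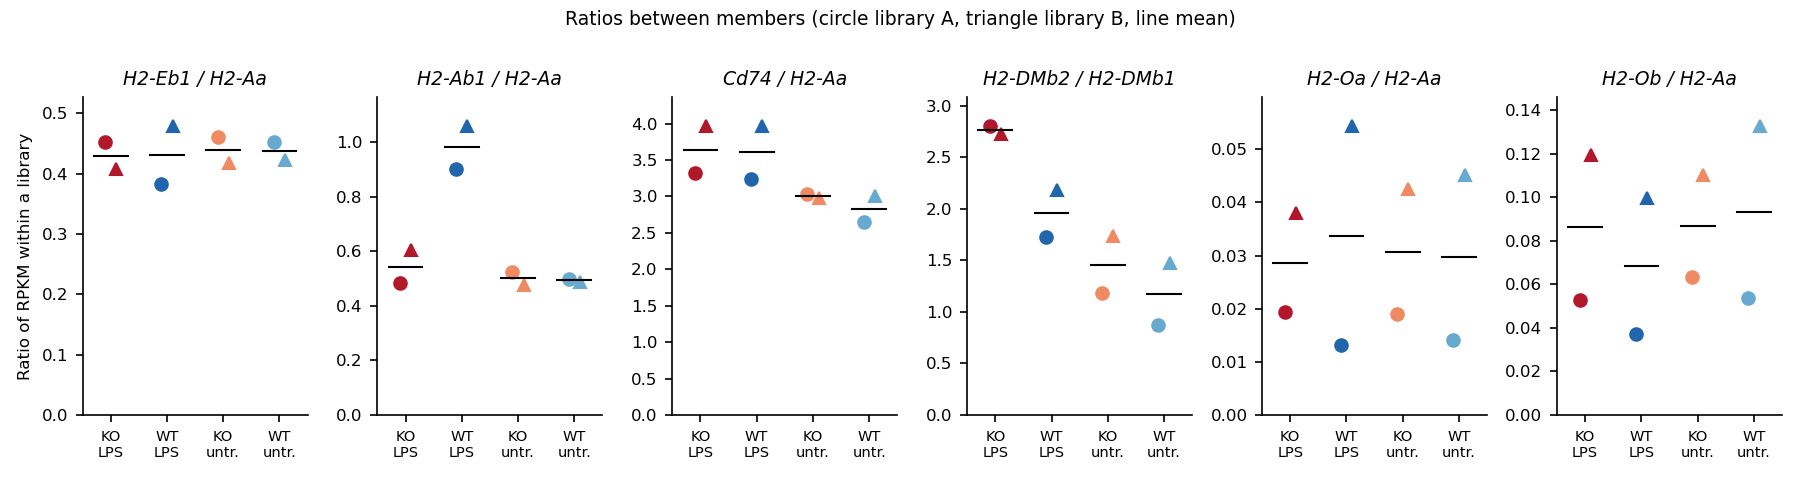
Ratio of the RPKM of 2 members within each library (linear axes from 0), by group; circles are library A, triangles library B and the line the mean of 2. H2-Eb1 over H2-Aa stays between 0.383 and 0.479, H2-Ab1 over H2-Aa is 0.903 and 1.06 in WT with LPS, and the H2-O ratios differ by letter in each group.

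H2-O, the restrainer of H2-DM, differed more between letters than between groups. H2-Oa, its alpha chain, stood at 7.54 and 14.2 RPKM in KO with LPS, 4.54 and 10.7 RPKM in WT with LPS, 4.45 and 27.6 RPKM in untreated KO, and 3.92 and 11.5 RPKM in untreated WT. H2-Ob, its beta chain, stood at 20.6 and 44.8 RPKM in KO with LPS, 12.8 and 19.7 RPKM in WT with LPS, 14.8 and 71.4 RPKM in untreated KO, and 14.9 and 33.7 RPKM in untreated WT. Library B was above library A in each of the 4 groups for both genes, which held for 2 of 10 members and for 6.83% of tested loci. The LPS change of H2-Oa was -0.13 in KO and 0.04 in WT (SE 0.82 each), and that of H2-Ob was -0.11 in KO and -0.47 in WT (SE 0.74 each). With median-ratio scaling the KO values turned positive, at 0.15 for H2-Oa and 0.19 for H2-Ob. The 95% interval of the LPS change of H2-Oa in KO, -2.04 to 1.78 is wide, and a change within it was not detectable here. Summed markers of T and NK cells were also higher by letter, at 10.3 to 47.7 RPKM in the B libraries against 3.84 to 6.15 RPKM in the A libraries, with B above A in each group for 10 of 11 genes. Summed mast cell and granulocyte markers were 138 to 215 RPKM in B against 40.7 to 133 RPKM in A. The part of either in the H2-O values was not tested.

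Ciita, the family's coactivator, stood at 8.30 and 11.4 RPKM in KO with LPS, 6.37 and 7.30 RPKM in WT with LPS, 5.99 and 18.4 RPKM in untreated KO, and 7.87 and 7.44 RPKM in untreated WT. Both WT libraries with LPS lay just below both untreated WT libraries, and in KO the treatments overlapped. Its log2 change with LPS was -0.12 in KO (SE 0.44, 95% interval -1.14 to 0.91, limma adjusted p = 0.875) and -0.15 in WT (SE 0.44, -1.17 to 0.88, adjusted p = 0.848). Median-ratio scaling gave 0.17 in KO and 0.12 in WT, so no direction can be given. Across the 8 libraries, log2 levels of the other members correlated with those of Ciita at r = 0.52 (H2-Ab1) to 0.90 (H2-DMb2 and H2-Ob). Without untreated KO library B the same values ran from 0.04 (H2-DMb1) to 0.79 (H2-Ob). These are descriptions over libraries that share 1 high sample and 4 groups.

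Over all 10 members, LPS gave no call. Limma with Benjamini-Hochberg adjustment called 0 members in KO, where 6.62% of tested loci were called, and 0 in WT, where 6.31% were. Averaged over genotypes 0 members were called beside 30.3% of loci. At an unadjusted p under 0.05 the counts were 0, 0 and 2, the last being H2-DMa and H2-DMb1. With the letter as a replicate block 0 members passed either, while the calls over all loci were 1611 in KO and 1818 in WT, against 746 and 711. The median log2 change of the members was -0.09 in KO and -0.04 in WT, beside medians over all tested loci of -0.28 and -0.25. Median-ratio scaling set these medians over all loci to -0.01 in KO and 0.00 in WT, and the members' medians then stood at 0.22 in KO and 0.26 in WT. Libraries of the 2 treatments did not overlap upward for 0 members in KO (15.1% of loci) and 2 in WT (18.2%), which were H2-Ab1 and Cd74. Downward they did not overlap for 1 member in KO (48% of loci), H2-DMb1, and for 3 in WT (45.9%), namely H2-DMa, H2-DMb1 and Ciita.

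**Figure D3:**
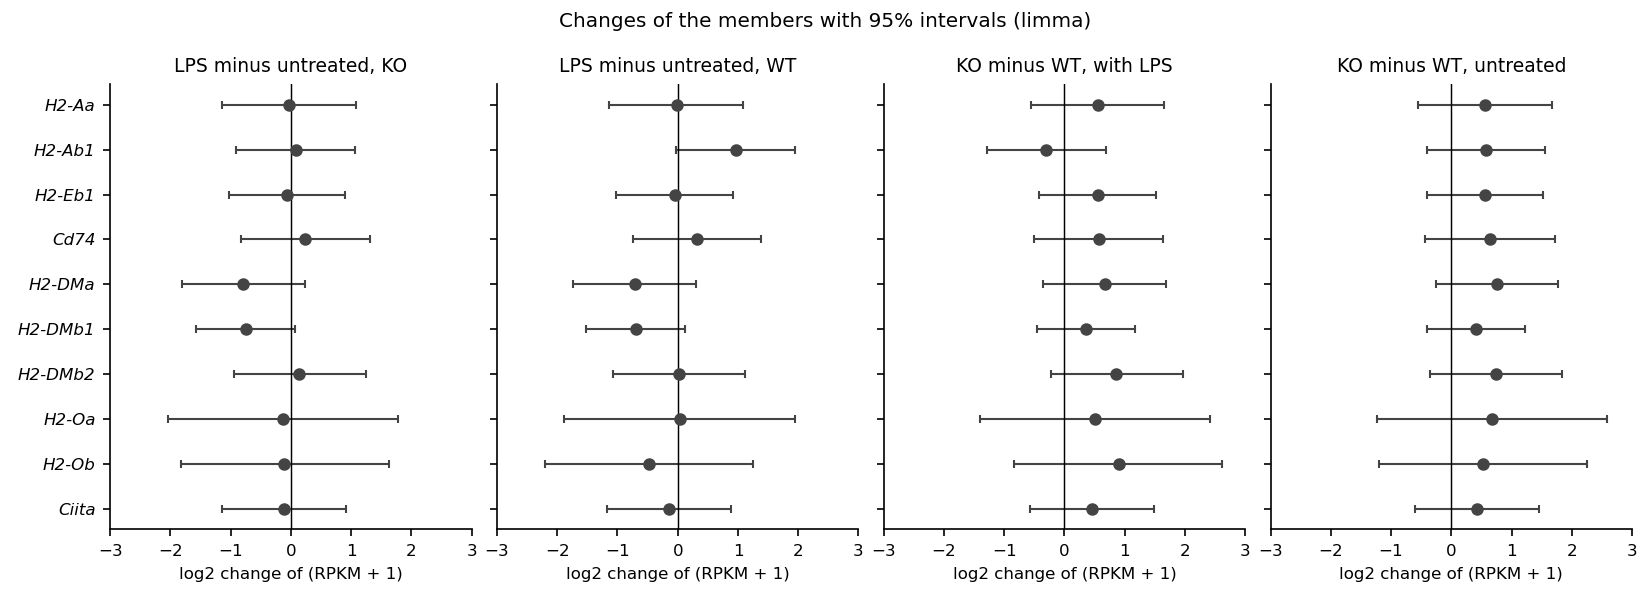
Log2 change of RPKM + 1 for each member in 4 comparisons (limma estimates with 95% intervals; the vertical line is no change). The LPS estimates lie on both sides of 0, the KO minus WT estimates lie above 0 in all but H2-Ab1 with LPS, and no estimate passed the adjusted threshold.

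The members were higher in libraries labelled KO than in WT in most estimates, and none passed. Without LPS, all 10 log2 differences were positive, from 0.41 (H2-DMb1) to 0.76 (H2-DMa), with a median of 0.57 beside 0.07 over all tested loci. Limma called 0 of 10, beside 0.0266% of loci, and 0 at an unadjusted p under 0.05. The untreated KO and WT libraries overlapped for all 10 members, whereas 17.8% of loci did not overlap upward and 5.86% downward. These differences rest on 1 library: without untreated KO library B the median was -0.11, and 9 of the 10 turned negative, for instance Cd74 at -0.07, H2-Aa at -0.18, Ciita at -0.31 and H2-Ob at -0.57. With LPS, 9 of 10 differences were positive, with a median of 0.55 beside 0.05 over all loci. Limma again called 0, beside 0.00887% of loci, and 0 at an unadjusted p under 0.05. Both KO libraries with LPS were above both WT libraries with LPS for 8 of 10 members, beside 18.7% of loci, and below them for 0, beside 11.7%. The exceptions were H2-Oa, whose libraries overlapped, and H2-Ab1, at -0.30 (SE 0.42). The largest of these differences were H2-Ob at 0.90 (SE 0.74, 95% interval -0.83 to 2.62) and H2-DMb2 at 0.86 (SE 0.47, -0.23 to 1.96).

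Averaged over treatments, the differences ran from 0.14 (H2-Ab1) to 0.80 (H2-DMb2). Limma called 0 of 10, beside 0.0355% of loci, and 1 at an unadjusted p under 0.05, H2-DMb2 (95% interval 0.03 to 1.58). The LPS response differed between genotypes for 0 of 10 members, beside 0.0355% of loci called, and for 0 at an unadjusted p under 0.05. The LPS and genotype comparisons share libraries, and the untreated KO pair enters both.

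B cell markers, which mark cells that express the whole family, moved with these differences. Their 15 genes summed to 1930 and 1476 RPKM in KO with LPS, 921 and 675 RPKM in WT with LPS, 961 and 2553 RPKM in untreated KO, and 1054 and 957 RPKM in untreated WT. Untreated KO library B again stood highest, for 14 of 15 markers, beside 35.2% of loci. This was not particular to B cells, but it did not hold for every cell type list. That library stood highest for 9 of 12 large peritoneal macrophage markers, 9 of 11 T and NK cell markers and 8 of 11 mast cell and granulocyte markers. It stood highest for 4 of 11 dendritic cell markers, 3 of 8 small peritoneal macrophage markers and 3 of 9 macrophage identity genes, near the share over all loci. Both KO libraries with LPS were above both WT libraries with LPS for 13 of 15, beside 18.7% of loci. Ms4a1, which encodes CD20, stood at 501 and 324 RPKM in KO with LPS, 193 and 130 RPKM in WT with LPS, 147 and 514 RPKM in untreated KO, and 156 and 113 RPKM in untreated WT. Cd79a, a signalling chain of the B cell receptor, stood at 332 and 241 RPKM in KO with LPS, 148 and 114 RPKM in WT with LPS, 151 and 390 RPKM in untreated KO, and 170 and 157 RPKM in untreated WT. Of the 15, 0 passed by limma in KO minus WT with LPS (6 at an unadjusted p under 0.05, median 1.12), beside 0.00887% of loci. Without LPS 0 passed (0 at an unadjusted p under 0.05, median 0.68), beside 0.0266% of loci. None of the 15 was under 1 RPKM in all libraries. The mean of the B cell markers correlated over the 8 libraries with H2-DMb2 at r = 0.96 (0.91 without untreated KO library B), with Ciita at 0.93 (0.82), and with H2-Ab1 at 0.41 (0.01). Dendritic cell markers summed to 28.0 to 57.9 RPKM. The most abundant on average were Ccr7 at 9.34 RPKM (4.34 to 18.7 RPKM) and Itgax at 6.65 RPKM (3.07 to 11.1 RPKM). Of the 11 listed, only Flt3 and Xcr1 were under 1 RPKM in all libraries. Of the 9 tested, both KO libraries with LPS were above both WT libraries with LPS for 5 and below them for 2. The shares over all loci were 18.7% and 11.7%. Limma called 0 of these 9, and their median log2 difference was 0.37. Of 6 tested small peritoneal macrophage markers, 2 lay above and 2 below in that comparison, beside the same shares. Their median log2 difference, KO minus WT, was -0.64 with LPS and 0.35 without LPS. Limma called 0 of the 6 in either. The part of these cells in the members' values was not tested.

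The summed level of the macrophage identity genes was lower in KO, and 1 gene, Lyz2, dominates that sum. The 9 genes of the list summed to 8354 and 8321 RPKM in KO with LPS, 21247 and 18636 RPKM in WT with LPS, 11661 and 18154 RPKM in untreated KO, and 32023 and 35667 RPKM in untreated WT. Most of the sum is the lysozyme gene Lyz2, at 5111 and 4547 RPKM in KO with LPS, 17329 and 13230 RPKM in WT with LPS, 8502 and 15001 RPKM in untreated KO, and 28588 and 32317 RPKM in untreated WT. With LPS, both KO libraries lay below both WT libraries for 6 of the 9 genes and above them for 1, beside 11.7% and 18.7% of loci, and the median log2 difference was -0.65. Without LPS, 2 of 9 lay below and 0 above, beside 5.86% and 17.8% of loci, with a median of -0.01. Limma called 0 of 9 with LPS (4 at an unadjusted p under 0.05), beside 0.00887% of loci. Without LPS it called 0 of 9 (1 at an unadjusted p under 0.05), beside 0.0266% of loci. Csf1r stood at 339 and 249 RPKM in KO with LPS, 645 and 356 RPKM in WT with LPS, 440 and 679 RPKM in untreated KO, and 585 and 948 RPKM in untreated WT. The part of this difference in the members' values was not tested.

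**Figure D4:**
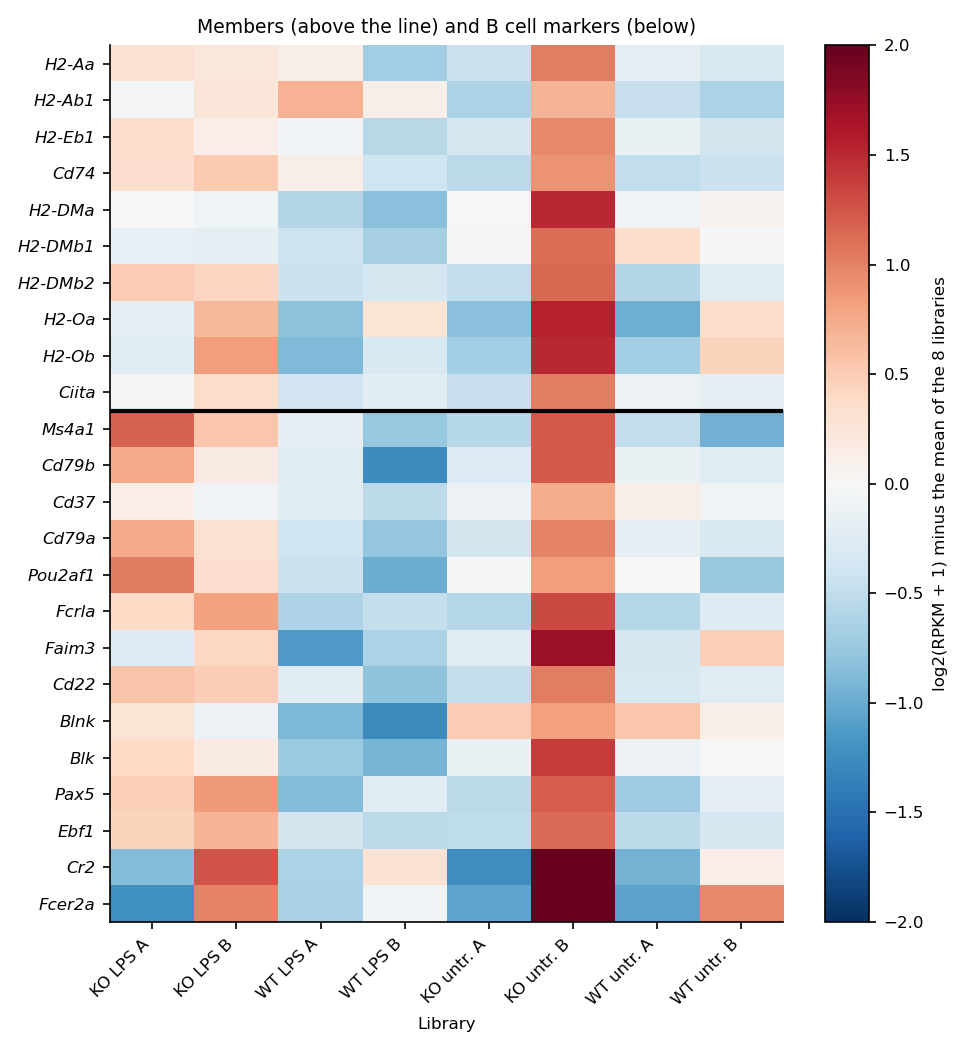
Log2(RPKM + 1) of the 10 members (above the line) and 14 of the 15 B cell markers (below) in each library, minus the gene's mean over the 8 libraries; red is higher and blue lower. Untreated KO library B is the reddest column for 9 members and 13 of the markers drawn, and the KO columns with LPS are redder than the WT columns with LPS for most rows of both blocks.

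Some genes in the lists around the members were called for LPS. In a list of 10 genes that process antigen and the invariant chain, 6 fell and 1 rose with LPS averaged over genotypes (limma adjusted p under 0.05, where 21.8% of tested loci fell and 8.46% rose), with a median log2 change of -1.24. Ifi30, the thiol reductase that unfolds antigen in endosomes, stood at 260 and 188 RPKM in KO with LPS, 161 and 159 RPKM in WT with LPS, 641 and 462 RPKM in untreated KO, and 577 and 579 RPKM in untreated WT. All 4 LPS libraries were below all 4 untreated ones, a log2 change of -1.57 (SE 0.18, adjusted p = 0.00231). The protease Ctsh fell by 1.30 on the log2 scale (SE 0.16, adjusted p = 0.0032). The lowest change of the list was that of Lgmn, at -1.85 (SE 0.49, adjusted p = 0.0301), and Ctsd stood at -1.50 (SE 0.32, adjusted p = 0.0148). Both calls were lost without a filter on low values (adjusted p = 0.0621 and 0.087), and each was lost when some single libraries were left out. Ctss, which makes the last cuts in the invariant chain, fell by 1.17 (SE 0.35, adjusted p = 0.0427), a call that is lost with median-ratio scaling (adjusted p = 0.0772) and when any of 7 of the 8 libraries is left out. The count of 6 depends on the libraries and settings: 8 fell with the letter as a replicate block, which adds Ctsb and Ctsl (adjusted p = 0.00443 and 0.00267), and 2 fell without a filter on low values. Leaving out KO library B with LPS or untreated WT library A gave 2, and leaving out WT library B with LPS gave 3. Sppl2a, the protease that clears the invariant chain's membrane stub, rose by 0.82 (SE 0.15, adjusted p = 0.0101), the opposite way to most of the list.

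Of 8 repressors of Ciita or of the family, 4 rose and 1 fell (median log2 change 0.67), beside 8.46% and 21.8% of loci. The 1 that fell, the transcriptional repressor Bcl6 (-1.28, adjusted p = 0.02), was lost with median-ratio scaling (adjusted p = 0.0613), with quantile normalization (0.0587), and without KO library A or B with LPS, WT library B with LPS or untreated KO library A (0.0503 to 0.0627). Socs1 and Socs3, inhibitors of cytokine signalling, rose by log2 4.12 (SE 0.50, adjusted p = 0.00285) and 3.26 (SE 0.29, adjusted p = 0.00127). Prdm1, which encodes the repressor Blimp-1, rose by 1.07 (SE 0.16, adjusted p = 0.00518). Of 11 inducers, 1 rose and 2 fell (median 0.07), which is near the shares over all loci. The interferon receptor kinase Jak2 rose by 2.46 (SE 0.27, adjusted p = 0.00221). The interferon gamma receptor chain Ifngr1 (-0.86, adjusted p = 0.0417) and the promoter factor Usf1 (-0.71, adjusted p = 0.0351) fell, and both calls were lost with median-ratio scaling (adjusted p = 0.0768 and 0.0802), without a filter (0.0706 and 0.0572) and without any 1 of 5 libraries. Usf1 was also lost with quantile normalization (0.0535) and Ifngr1 without KO library A with LPS (0.0978). The risers numbered 3 with the letter as a replicate block, without WT library A with LPS and without untreated KO library B. Ifng and Irf1 are described because their values, once seen, differed by letter. Ifng, the inducer itself, stood at 0 and 42.5 RPKM in KO with LPS, 0.733 and 81.2 RPKM in WT with LPS, 0 and 0.361 RPKM in untreated KO, and 0 and 0.173 RPKM in untreated WT. Irf1, an interferon gamma target that acts on a Ciita promoter, stood at 153 and 288 RPKM in KO with LPS, 133 and 564 RPKM in WT with LPS, 40.3 and 161 RPKM in untreated KO, and 51.2 and 83.0 RPKM in untreated WT. Both were higher in library B of each group, and neither passed for LPS (Irf1 log2 change 1.71, adjusted p = 0.061, and 0.00365 with the letter as a replicate block).

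With LPS averaged over genotypes, limma called 0 of the 7 factors that bind the X and Y boxes. At an unadjusted p under 0.05 the count was 3, and the log2 changes ran from -0.49 to 0.34. Of all tested loci, 8.46% rose and 21.8% fell. These shares also stand beside the counts of the surface and class I lists below at the main setting. With the letter as a replicate block 1 fell, the RFX subunit gene Rfxap (-0.49, adjusted p = 0.0408), with median-ratio scaling or quantile normalization 1 rose, and without WT library A with LPS 2 fell. Rfx5, the RFX subunit that binds the X box, stood at 6.97 and 7.35 RPKM in KO with LPS, 6.63 and 7.19 RPKM in WT with LPS, 4.10 and 10.9 RPKM in untreated KO, and 5.29 and 6.41 RPKM in untreated WT. It was highest in the same library as the members. Among 6 measured genes tied to class II at the cell surface, Cd44 rose by 0.89 (SE 0.16, adjusted p = 0.0105) and Cxcr4 fell by 1.97 (SE 0.27, adjusted p = 0.00387), both partners of the Cd74 receptor complex. Without untreated KO library A, 3 of the 6 fell, and with the letter as a replicate block or without WT library A with LPS, 2 rose. Of 5 class I genes of the region, of which Tapbp (mm9 chromosome 17, 34052844 to 34066235) lies outside the span of the members and 4 inside it, 2 rose: Tap1 by 1.5 (SE 0.44, adjusted p = 0.0411) and Tap2 by 0.90 (SE 0.21, adjusted p = 0.0214), the subunits of the peptide transporter. Tap1 was lost without a filter on low values (adjusted p = 0.0778), without untreated KO library A (0.0852) and without untreated WT library B (0.0855), and both were lost without KO library A or B with LPS, WT library B with LPS or untreated WT library A (adjusted p = 0.0704 to 0.127 for Tap1 and 0.0588 to 0.0779 for Tap2).

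**Figure D5:**
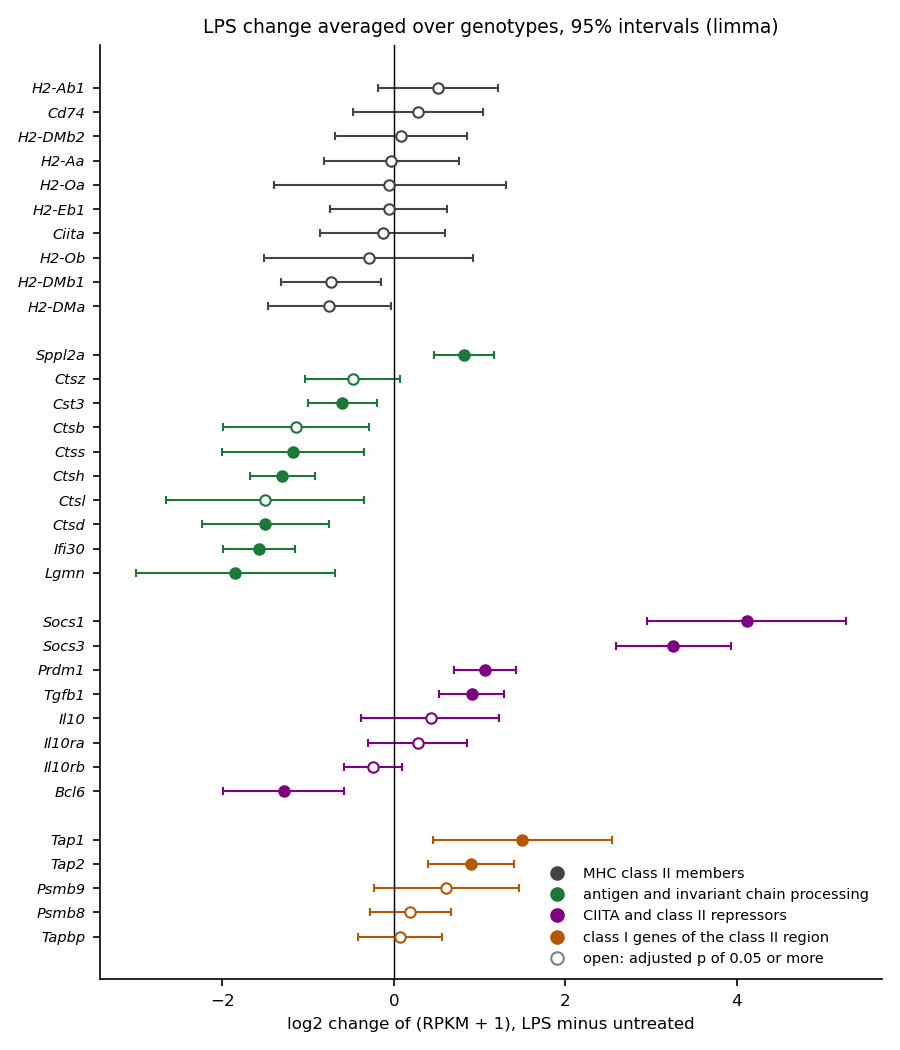
Log2 change of RPKM + 1 with LPS, averaged over genotypes, for the members and 3 lists around them (limma estimates with 95% intervals; filled points have an adjusted p under 0.05, open points do not). The 10 members are all open, 6 of 10 processing genes are filled below 0, and Socs1 and Socs3 lie at 4.12 and 3.26.

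The genes most like the classical chains and Cd74 were found by correlating log2(RPKM + 1) over the 8 libraries with the centred mean of H2-Aa, H2-Ab1, H2-Eb1 and Cd74, among 7991 loci with at least 5 RPKM on average. The highest were Ptprc, which encodes the leukocyte antigen CD45 (r = 0.989), Zfp397 (0.988), Med13 (0.959), Thoc2 (0.956) and Psip1 (0.954), followed by Lbr, Ccnt2, A630001G21Rik, Mapk11 and Ppp3cb, the last at 0.931. Ptprc stood at 193 and 184 RPKM in KO with LPS, 181 and 147 RPKM in WT with LPS, 145 and 223 RPKM in untreated KO, and 156 and 149 RPKM in untreated WT. It spanned a narrower range than the chains did. Without untreated KO library B, Ptprc kept r = 0.981, and Thoc2 had 0.899. With median-ratio scaling, 3 of the 10 stayed among the 10 highest.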

How the data were processed

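RNA sequencing values of 8 libraries of peritoneal macrophages were deposited by the authors as RPKM in 1 table of 24192 lines. Of these, 457 give a second symbol for a locus already listed, which leaves 23735 loci. Per the submitters' processing notes, the tools were bcl2fastq, TopHat2 2.0.14 and Cufflinks 2.2.1 with the mm9 genome. Annotation and strandedness are unstated in the sources used here. No read counts were used, and the step size among low RPKM values gave the depth. At 2803 low loci, 88.7% had only whole multiples of 1 read, within 0.1 read plus 0.02 per read. The deepest library was set at 14.4 M (quartiles 13.4 and 14.9) from 715 genes.

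The 11272 loci that reached 1 RPKM in 2 or more libraries were analysed as log2(RPKM + 1) in R 4.3.3 with limma 3.58.1, with 1 mean per group and a variance trend, after the fit had been tested on simulated data. Fold changes on this scale understate those of low genes. Tests were two-sided, adjusted over all tested loci with the Benjamini-Hochberg method, and a locus was called under 0.05. Every adjusted p comes from limma. Alternatives changed the pseudocount, the filter, the scaling, the variance trend, the letter as a block, the summing of H2-DMb1 with H2-DMb2, and the libraries included. Positions are from GENCODE vM1 on mm9, and promoters from RefSeq. Python 3.11.15, pandas 2.3.3, Biopython 1.88 and matplotlib 3.10.9 were used for the rest.

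The members and lists were chosen with earlier results of these data known. The rule for naming genes took Med1, all members, up to 4 called genes of a list by size or otherwise up to 3 by level, the most abundant markers, and the 10 most correlated loci. The text departs from that rule in places. Cd79b and Cd37, among the most abundant B cell markers, are not described. Nor are Clec10a, Dpp4 and Batf3, among the most abundant dendritic cell markers. Ctss, Flt3 and Xcr1 are among the genes named outside the rule. Of the 15 B cell markers, 1 enters the counts and sums but is not reported here by itself. Cd74 shares its locus with the microRNA symbol Mir5107.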

Additional observations from a re-analysis of the deposited data

How the results depend on the processing

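No member was called at any setting that kept all 8 libraries. With the letters as a replicate block, 0 members passed, and calls over all loci were 1611 for LPS in KO and 1818 for LPS in WT, against 746 and 711 without it. The labels do not say what the letters stand for. Same-letter deviations correlated at 0.20 to 0.41 over the 6 pairs of groups, each group having 2 libraries. The counts of called genes in the lists around the members were recomputed under every setting after the data were seen. Without a filter the calls were 262 for LPS in KO, 270 for LPS in WT and 2 for KO minus WT with LPS. A pseudocount of 0.1 or a filter at 5 RPKM gave 2 calls for KO minus WT averaged over treatments and 0 for the difference in LPS response. Leaving out 1 library, calls ranged from 20 to 1554 for LPS in KO, 7 to 2244 for LPS in WT, 1121 to 4528 for LPS averaged over genotypes, 2 to 4 for KO minus WT without LPS, 0 to 6 for KO minus WT with LPS, 0 to 6 for KO minus WT averaged over treatments and 1 to 7 for the difference in LPS response, and members called from 0 to 1 for LPS in KO and 0 to 2 for LPS averaged over genotypes. The cause was not tested, and fewer libraries leave fewer degrees of freedom.

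Directions of the LPS changes depend on scaling. Median-ratio scaling turned H2-Aa to 0.28 in KO, 0.27 in WT and 0.28 averaged, H2-Eb1 to 0.25, 0.24 and 0.24, and Ciita to 0.17, 0.12 and 0.14. It turned H2-Oa to 0.15 in KO and 0.23 averaged, H2-Ob to 0.19 in KO and 0.00 averaged, and the difference in LPS response of H2-Aa and H2-Eb1 to 0.01. Quantile normalization gave Ciita 0.11 in KO, WT and averaged, and H2-Oa 0.08 in KO and 0.18 averaged. Summing H2-DMb1 with H2-DMb2 gave -0.17 in KO, -0.29 in WT and -0.23 averaged, and 0.12 for the difference in LPS response.

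Leaving out 1 library also turned directions, all of uncalled differences. The log2 values ranged for LPS in KO H2-Aa at -0.76 to 0.70, H2-Ab1 at -0.58 to 0.74, H2-Eb1 at -0.72 to 0.60, Cd74 at -0.48 to 0.96, H2-DMb2 at -0.68 to 0.96, H2-Oa at -1.32 to 1.07, H2-Ob at -1.20 to 0.99 and Ciita at -0.85 to 0.62, for LPS in WT H2-Aa at -0.43 to 0.38, H2-Eb1 at -0.30 to 0.19, H2-DMb2 at -0.14 to 0.19, H2-Oa at -0.63 to 0.71 and H2-Ob at -1.04 to 0.09, for LPS averaged over genotypes H2-Aa at -0.39 to 0.34, H2-Eb1 at -0.39 to 0.27, Cd74 at -0.08 to 0.64, H2-DMb2 at -0.33 to 0.49, H2-Oa at -0.64 to 0.55, H2-Ob at -0.84 to 0.26 and Ciita at -0.50 to 0.24. They ranged for KO minus WT without LPS H2-Aa at -0.18 to 1.29, H2-Ab1 at -0.08 to 1.23, H2-Eb1 at -0.10 to 1.22, Cd74 at -0.07 to 1.36, H2-DMb1 at -0.13 to 0.95, H2-DMb2 at -0.08 to 1.56, H2-Oa at -0.52 to 1.87, H2-Ob at -0.57 to 1.63 and Ciita at -0.31 to 1.17, for KO minus WT with LPS H2-Oa at -0.04 to 1.04, for KO minus WT averaged over treatments H2-Ab1 at -0.19 to 0.46 and H2-Oa at -0.01 to 1.18, for the difference in LPS response H2-Aa at -0.74 to 0.72, H2-Eb1 at -0.67 to 0.65, Cd74 at -0.80 to 0.64, H2-DMa at -0.84 to 0.67, H2-DMb1 at -0.60 to 0.49, H2-DMb2 at -0.70 to 0.94, H2-Oa at -1.36 to 1.03, H2-Ob at -0.73 to 1.46 and Ciita at -0.71 to 0.77. Among the genes around the members, the calls for Socs1, Socs3, Jak2, Prdm1, Ifi30, Ctsh, Sppl2a, Cxcr4 and Cd44 held at every setting run, leaving out each library included.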

Other observations

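The letters A and B, whose meaning the labels do not give, separated some genes of the class II region more than treatment or genotype did. In the fit with the letter as a block, a contrast chosen after the values were seen, H2-Eb2 was higher in B than in A by 1.70 on the log2 scale (SE 0.16, limma adjusted p = 0.0195). Its levels were 2.68 and 9.5 RPKM in KO libraries A and B with LPS, 1.60 and 8.11 RPKM in WT with LPS, 1.87 and 10.1 RPKM in untreated KO, and 1.47 and 6.10 RPKM in untreated WT, so B exceeded A in 4 of 4 groups. H2-Oa (1.41, SE 0.26, adjusted p = 0.0733) and H2-Ob (1.25, SE 0.25, adjusted p = 0.0895) did not pass. The other 8 members had B minus A differences of 0.10 to 0.50, and 0 of 10 members passed (2 at an unadjusted p under 0.05), beside 0.24% of loci called higher in B and 0.337% called lower.

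The B cell receptors for complement and immunoglobulin E, Cr2 and Fcer2a, the least abundant of the B cell markers, showed the same split. Cr2 stood at 0.665 and 6.29 RPKM in KO libraries A and B with LPS, 0.954 and 2.69 RPKM in WT with LPS, 0.287 and 11.3 RPKM in untreated KO, and 0.571 and 2.31 RPKM in untreated WT. Fcer2a stood at 0.174 and 4.48 RPKM in KO with LPS, 0.763 and 1.63 RPKM in WT with LPS, 0.333 and 10.9 RPKM in untreated KO, and 0.306 and 4.39 RPKM in untreated WT. Of the 15 B cell markers, 5 were higher in B in each group, beside 6.83% of tested loci. The most abundant, Ms4a1, was lower in B in each group but untreated KO. Its B over A ratio was 0.647 in KO with LPS, 0.670 in WT with LPS, 3.5 in untreated KO and 0.720 in untreated WT. The sum of the 15 was also lower in B in each group but untreated KO. The part of any cell type in the H2-O and H2-Eb2 values was not tested.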
